A study of Mus musculus with 2 samples.

Results

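The Rab GTPases are the small GTP-binding proteins that direct membrane traffic, and the account here covers the mouse genes that encode them in bone marrow derived macrophages. Their members were chosen by name, as the protein-coding genes whose GENCODE M21 symbol is Rab followed by a number and at most a letter and a number. Of 59 such genes among the 54446 genes listed, 47 averaged 10 counts or more over the 2 libraries and are called measured. The macrophages came from C57BL/6 mice, and they were either given the cytokine IL-36 gamma, which belongs to the interleukin-1 family, or left untreated as the control. Each of these groups had 1 library. The sources used here give neither the dose nor the duration of exposure, nor the age and number of the mice. A single library per group allows no p-value and no check against replicates, so every statement compares these libraries and not the conditions.

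A Rab protein switches between a form that holds GTP, which sits on a membrane and recruits effector proteins, and a form that holds GDP, which is drawn off the membrane by a dissociation inhibitor. Exchange factors switch a Rab on and GTPase-activating proteins switch it off, and each compartment of the cell carries its own set of Rabs. In macrophages these proteins steer the maturation of phagosomes into lysosomes, the return of receptors to the surface and the secretion of cytokines. The measured genes were grouped by the main site of the protein, as early endosome, recycling, late endosome, secretory and lysosome-related Rabs. The secretory Rabs were split into those of the endoplasmic reticulum and Golgi and those acting between the Golgi and the plasma membrane, and genes known from cilia or other roles stood apart.

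The IL-36 gamma library held 17267900 counts in genes and the control library 17426367. The Rab genes took 72363 of these counts in the IL-36 gamma library, or 0.419% (exact Clopper-Pearson 95% interval 0.416 to 0.422%). In the control library they took 72631 counts, or 0.417% (0.414 to 0.420%). All 8 macrophage markers listed were measured, with summed levels of 29333 counts scaled to a common library size (CPM) in the IL-36 gamma library and 29439 CPM in the control library. Lyz2 made up most of these sums, at 22462 CPM in the IL-36 gamma library and 22763 CPM in the control library, and the interval of the ratio, IL-36 gamma over control, lay above 1 for 3 of the 8 markers and below 1 for 4. The extremes were Fcgr1 at a ratio of 1.35 and Mertk at 0.786. The summed level of 10 neutrophil markers was 379 CPM in the IL-36 gamma library and 297 CPM in the control library, and 7 of the 9 measured had an interval above 1. Mmp8 had one below 1, with a ratio of 0.663 (0.617 to 0.713). In bulk RNA, a change in the number of cells of a type and a change in RNA per cell cannot be told apart. Markers of dendritic cells, lymphocytes and erythroid cells summed to at most 1.69 CPM per list in either library, and 5 mast cell and basophil markers were at 0 in both. Of 4 melanocyte markers Tyr and Dct were at 0 in both libraries. The fibroblast list summed to 5.97 CPM in the IL-36 gamma library and 9.90 CPM in the control library. The melanocyte list summed to 2.48 CPM in the IL-36 gamma library and 2.59 CPM in the control library.

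The Rab transcripts with many counts differed little between the libraries. None of the 47 measured genes passed the size rule, under which the whole exact 95% interval of the ratio of scaled counts, IL-36 gamma over control, has to lie below 0.8 or above the inverse of 0.8. By the same rule 1.52% of the 14379 measured genes were higher and 2.53% were lower. At shares this low few of 47 genes would pass, so the absence of any does not set the Rab genes apart. At this depth 28 of the 47 Rab genes had their whole interval between these bounds, against 34.7% of all measured genes, a summary chosen after the values were seen. That share depends on depth. Above a mean count of 1000 it was 21 of 21 Rab genes, with ratios between 0.897 and 1.15, against 75.1% of all such genes. The standard deviation of log2 ratios at that depth was 0.08 over the Rab genes and 0.21 over all genes. Intervals cover counting error only, and how far a pair of untreated cultures would differ was not measured.

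**Figure D1:**
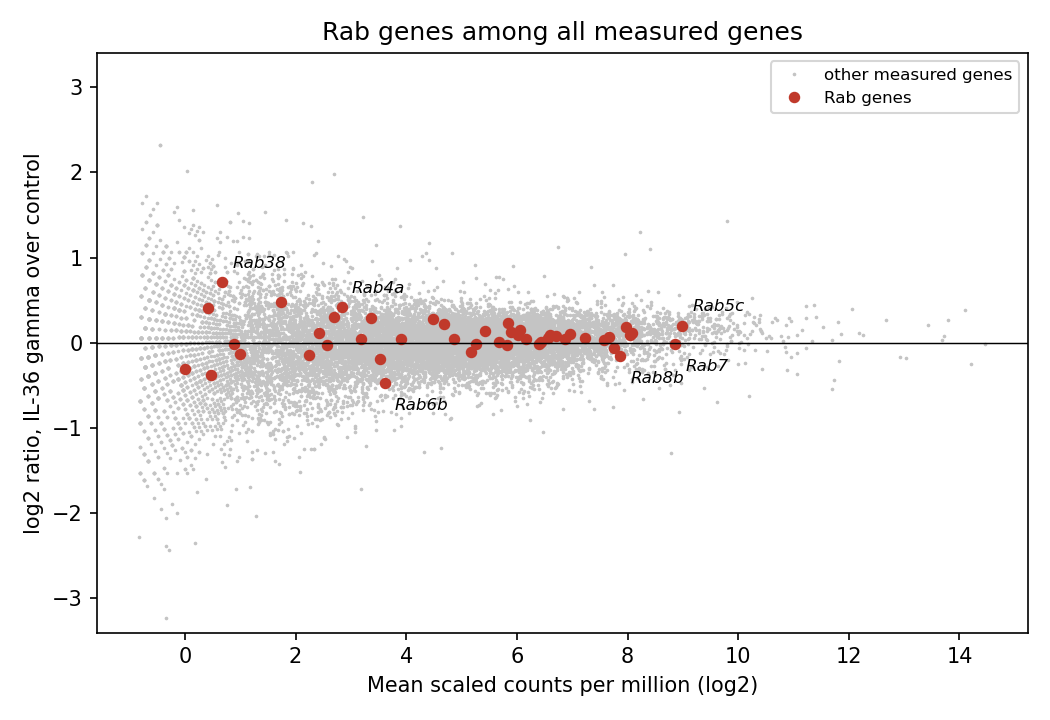
Log2 ratio of scaled counts (IL-36 gamma over control, prior count of 2) against mean scaled CPM on a log2 axis, for the 47 measured Rab genes (red) and all other measured genes with an annotation (grey). Every Rab gene above a mean count of 1000 lies between ratios of 0.897 and 1.15, and the widest spread is among those with few counts, such as Rab38.

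Small differences depended on the scaling. The interval lay wholly above 1 for 11 Rab genes, or 23.4%, close to the 20.2% of all measured genes, and wholly below 1 for 2, or 4.26%, against 16.5%. With total counts it lay above 1 for 4 and below 1 for 4. The median log2 ratio of the Rab genes was 0.05, beside 0.01 over all measured genes, and it was -0.01 when libraries were scaled by total counts, where that of all measured genes was -0.05. Ratios in these libraries followed gene length. Of 4 nearly equal groups of genes by exon length, the shortest had a median log2 ratio of 0.11 and the longest of -0.10, and 4 Rab genes belong to the longest. From the shortest group to the longest, the Rab medians were 0.20, 0.05, 0.005 and 0.06, over 11, 17, 15 and 4 genes. With the length trend removed 8 Rab genes had an interval above 1, of which 5 were among the 11, and 5 had an interval below 1. Shares of all measured genes are not given for total counts or with the length trend removed. Those counts of Rab genes therefore stand without a background.

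**Figure D2:**
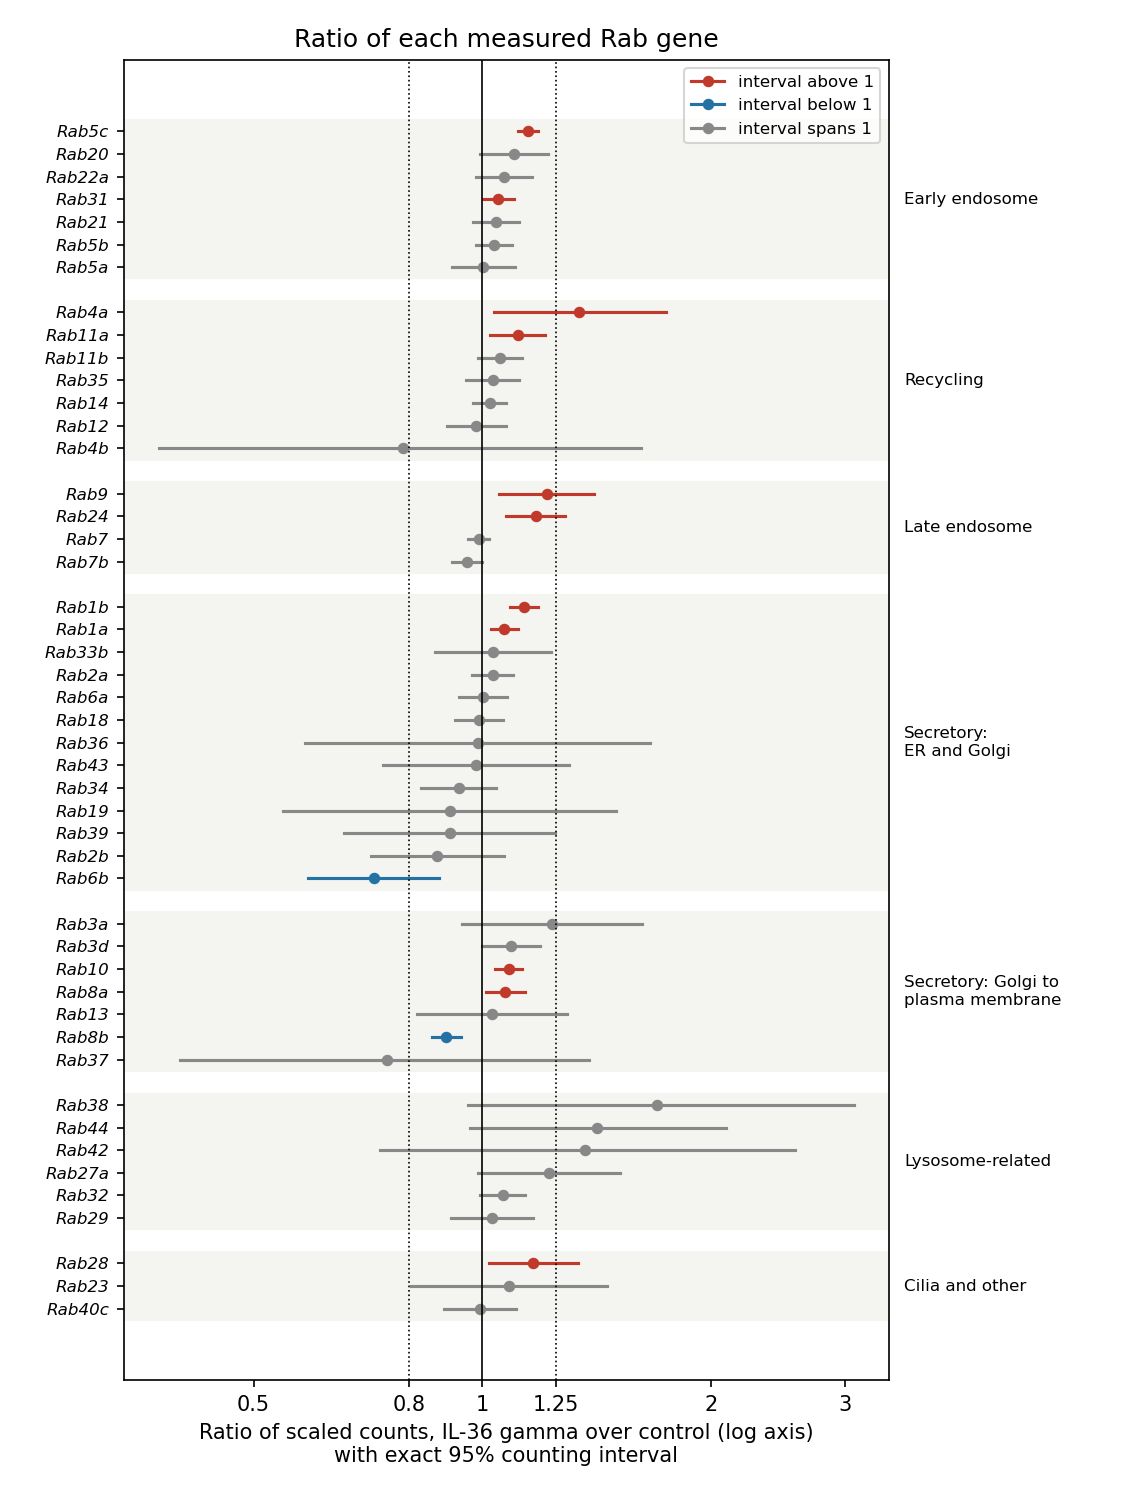
Ratio of scaled counts, IL-36 gamma over control, on a log axis for each measured Rab gene by role, with its exact 95% counting interval as a bar. Dotted lines mark 0.8 and its inverse. No interval lies wholly beyond a dotted line, 11 lie above 1 (red) and 2, those of Rab6b and Rab8b, lie below 1 (blue).

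Early endosome Rabs held the highest summed level of the 7 roles, among which the secretory Rabs are split by route. Levels are compared between genes only per length, as scaled CPM per kilobase of annotated exon, and on that scale the 7 measured genes of the group made up 30.2% of the Rab total in the IL-36 gamma library and 28.9% in the control library. Both secretory routes together made up 35.7% in the IL-36 gamma library and 36.1% in the control library. Rab5 proteins drive the fusion of early endosomes and of new phagosomes with them. Rab5c (ENSMUSG00000019173.11, chromosome 11, 100715009 to 100738215, minus strand, mm10) had the highest level of all Rab genes. Its level was 248 CPM per kilobase in the IL-36 gamma library and 216 in the control library, above 98.6% of measured protein-coding genes by its mean. Rab5c had 9217 counts in the IL-36 gamma library and 8427 in the control library, a ratio of 1.15 (1.11 to 1.18). The interval stayed above 1 under all 11 alternatives tried for single genes, with a log2 ratio of 0.20 as scaled and 0.10 after removal of the length trend. Among these were count minimums of 50 and 1 and the omission of members whose exons overlap another gene. Such settings cannot alter the interval of a gene that stays in, here or for the genes named below.

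The promoter window of Rab5c from RefSeq, 250 bases before to 50 after the start (GRCm38.p6, chr11:100738166-100738465, minus strand), is shown because this gene had the highest Rab level and the narrowest interval above 1. Capitals mark a GC box (GGGCGG) and a CCAAT box (CCAAT), read on either strand.
Rab5c: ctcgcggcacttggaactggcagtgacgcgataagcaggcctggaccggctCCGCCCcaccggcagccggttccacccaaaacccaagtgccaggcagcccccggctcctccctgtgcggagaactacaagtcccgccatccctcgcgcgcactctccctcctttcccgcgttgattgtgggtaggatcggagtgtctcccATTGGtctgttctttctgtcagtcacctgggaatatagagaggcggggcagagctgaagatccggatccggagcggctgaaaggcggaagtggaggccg

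The other Rab5 genes were lower in level and closer to a ratio of 1. Rab5b had 2603 counts in the IL-36 gamma library and 2637 in the control library, a ratio of 1.04 (0.981 to 1.09). Rab5a had 867 counts with IL-36 gamma and 907 in the control, a ratio of 1.003 (0.913 to 1.10). By level per length Rab5c made up 84.3% of Rab5 transcripts in the IL-36 gamma library and 82.8% in the control library. The ratio of Rab5c to Rab5b counts, which does not depend on the scaling, was 1.11 times as high with IL-36 gamma (exact conditional 95% interval 1.04 to 1.18), and that of Rab5c to Rab5a was 1.14 times as high (1.04 to 1.26). Rab5c is the shortest of the 3 genes, and with the length trend removed these values were 1.05 (0.983 to 1.11) over Rab5b and 1.05 (0.9502 to 1.16) over Rab5a, so neither interval lay above 1. Of the longest Rab5b transcript, 20.4% matched the gene Gm13991 at 97% identity or more, so reads there may have been left uncounted in both libraries.

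Rab31, which acts between the Golgi, endosomes and phagosomes, was the next most abundant of the group. It had 3503 counts in the IL-36 gamma library and 3504 in the control library, a ratio of 1.05 (1.001 to 1.10), whose interval held above 1 in 4 of 11 alternatives. Among the alternatives able to alter it, the interval held only with the trend on GC content removed. The other members had intervals that span 1. Rab20, a Rab of phagosome maturation, had 763 counts with IL-36 gamma and 727 in the control, a ratio of 1.10 (0.994 to 1.22). Exons of E230013L22Rik on the opposite strand cover 25.6% of its exonic bases. Rab21, known for the uptake of integrins, and Rab22a, which acts in the sorting of receptors from endosomes, had ratios of 1.04 and 1.07. The 7 measured early endosome genes, with mean counts of 745 to 8822, had their whole interval between 0.8 and its inverse, as did 34.7% of all measured genes and 75.1% of those above a mean count of 1000. Rab17, known from epithelial cells, was not measured, with 6 counts in the IL-36 gamma library and 2 in the control library.

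**Figure D3:**
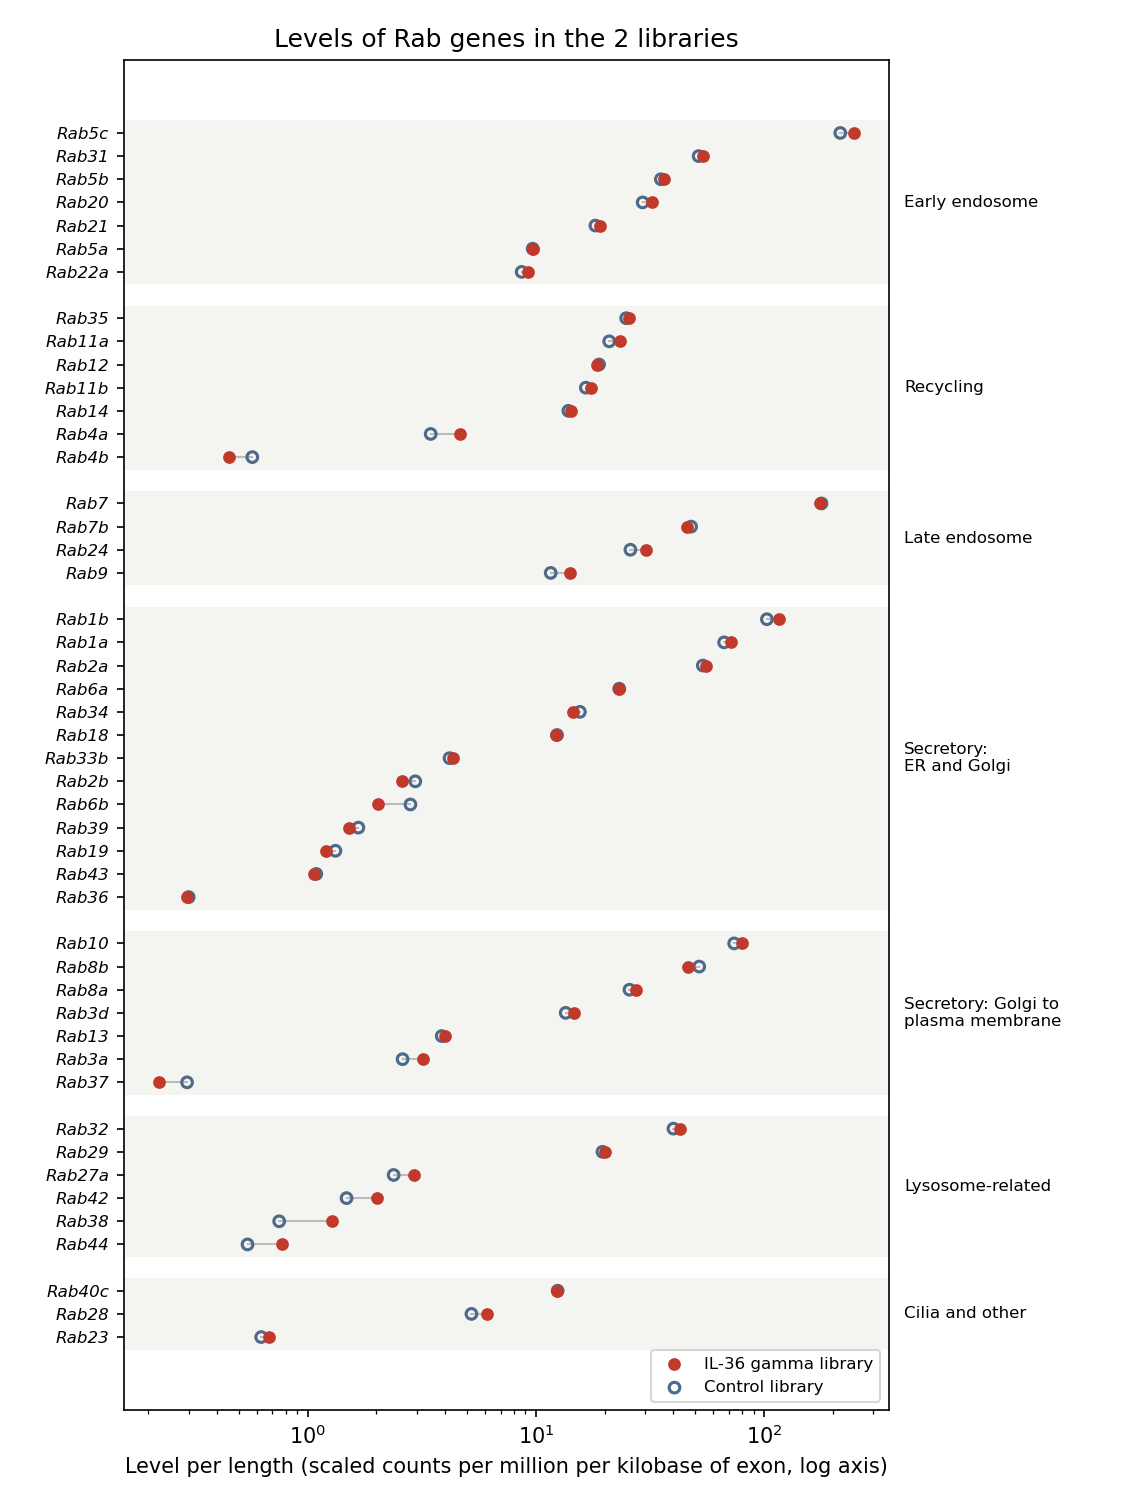
Level per length (scaled CPM per kilobase of exon, log axis) of each measured Rab gene in the IL-36 gamma library (filled) and the control library (open), by role. Rab5c (248 with IL-36 gamma, 216 in the control), Rab7 (177 with IL-36 gamma, 179 in the control) and Rab1b (117 with IL-36 gamma, 103 in the control) stand highest, and the points of most genes nearly coincide.

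Recycling Rabs were lower in level, with 7.71% of the Rab total in the IL-36 gamma library and 7.77% in the control library. The highest in level was Rab35, a Rab of rapid recycling and of the actin cytoskeleton, at 25.7 CPM per kilobase with IL-36 gamma and 24.9 in the control. It had 1226 counts in the IL-36 gamma library and 1247 in the control library, a ratio of 1.03 (0.953 to 1.12). Rab11 proteins return receptors to the surface from the recycling endosome. Rab11a had 1182 counts in the IL-36 gamma library and 1115 in the control library, a ratio of 1.11 (1.02 to 1.21). Rab11b had 1813 counts with IL-36 gamma and 1804 in the control, a ratio of 1.05 (0.988 to 1.13). The ratio of Rab11b to Rab11a counts was 0.948 times as high with IL-36 gamma (0.853 to 1.05), an interval that included 1. The interval of Rab11a included 1 in 3 of 10 alternatives, total counts, the length trend and 99% intervals, with a log2 ratio of 0.15 as scaled, 0.10 with total counts and 0.09 with the length trend removed.

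Rab4a, which serves the fast return route from early endosomes, had the widest ratio of the recycling genes whose interval lay above 1. It had 138 counts in the IL-36 gamma library and 108 in the control library, a ratio of 1.34 (1.04 to 1.74). This interval did not hold above 1 in 3 of 11 alternatives, total counts, the length trend and 99% intervals. Rab4b had 15 counts with IL-36 gamma and 20 in the control, a ratio of 0.787 (0.375 to 1.62), and 65.0% of its exonic bases lie in exons of other genes on the same strand. Rab14, which links the Golgi, endosomes and phagosomes, had 3264 counts in the IL-36 gamma library and 3353 in the control library, a ratio of 1.02 (0.973 to 1.07). Rab12, which sends the transferrin receptor to lysosomes, had a ratio of 0.982 (0.898 to 1.07). Rab15 had 6 counts with IL-36 gamma and 0 in the control, and the epithelial Rab25 had 0 with IL-36 gamma and 1 in the control, so neither was measured.

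Late endosome Rabs held 19.7% of the Rab total in the IL-36 gamma library and 20.7% in the control library, most of it from Rab7. The Rab7 protein moves late endosomes and mature phagosomes toward lysosomes. Rab7 (ENSMUSG00000079477.9, chromosome 6, 87999106 to 88045270, minus strand, mm10) had 7811 counts in the IL-36 gamma library and 8291 in the control library, a ratio of 0.989 (0.959 to 1.02). Its level was 177 CPM per kilobase with IL-36 gamma and 179 in the control, above 98.0% of measured protein-coding genes by its mean. Of the longest Rab7 transcript, 28.8% matched the pseudogene Rab7-ps1 at 97% identity or more. Rab7b, which carries cargo back from endosomes to the Golgi and limits Toll-like receptor signalling in macrophages, had 3587 counts with IL-36 gamma and 3939 in the control, a ratio of 0.956 (0.913 to 1.0003). The intervals of Rab7 and Rab7b both lay below 1 with scaling by total counts, with the expression trend removed and with the length trend removed. That of Rab7b also lay below 1 with DESeq2 size factors, with upper quartile scaling and with protein-coding genes only. Rab7 made up 79.4% of the level of this pair in the IL-36 gamma library and 78.9% in the control library.

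The less abundant late endosome genes lay on the other side of 1. Rab9, which returns mannose 6-phosphate receptors from late endosomes to the Golgi, had 418 counts in the IL-36 gamma library and 361 in the control library, a ratio of 1.22 (1.05 to 1.40). Rab24, a Rab of autophagy, had 1041 counts with IL-36 gamma and 930 in the control, a ratio of 1.17 (1.07 to 1.28). Exons of Prelid1 on the opposite strand cover 62.4% of the exonic bases of Rab24, and the sources used here do not say how strand was treated in counting, so its value is uncertain. After removal of the length trend both intervals included 1, with log2 ratios of 0.17 for Rab9 and 0.12 for Rab24. Rab9b was at 0 in both libraries.

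Secretory Rabs of the endoplasmic reticulum and Golgi held 22.7% of the Rab total in each library, over 13 measured genes. Rab1 proteins carry vesicles from the endoplasmic reticulum to the Golgi. Rab1b (ENSMUSG00000024870.5, chromosome 19, 5099205 to 5107072, minus strand, mm10) had 4498 counts in the IL-36 gamma library and 4159 in the control library, a ratio of 1.14 (1.09 to 1.18). This interval stayed above 1 in all 11 alternatives, with a log2 ratio of 0.18 as scaled and 0.08 after removal of the length trend. Rab1a had 4597 counts with IL-36 gamma and 4515 in the control, a ratio of 1.07 (1.03 to 1.11), and did not hold above 1 in 3 of them. The ratio of Rab1b to Rab1a counts was 1.06 times as high with IL-36 gamma (1.001 to 1.13), and 1.02 times (0.959 to 1.08) with the length trend removed.

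Golgi Rabs of the Rab2 and Rab6 type were dominated by 1 paralog each. Rab2a, which acts between the endoplasmic reticulum and the Golgi, had 2009 counts in the IL-36 gamma library and 2045 in the control library, a ratio of 1.03 (0.969 to 1.10). It made up 95.6% of the Rab2 level with IL-36 gamma and 94.8% in the control. Rab6a, a Rab of retrograde Golgi transport, had 1468 counts with IL-36 gamma and 1537 in the control, a ratio of 1.002 (0.933 to 1.08). Its paralog Rab6b, known as the form enriched in neurons, was the Rab gene with the lowest ratio.

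Rab6b (ENSMUSG00000032549.7, chromosome 9, 103111787 to 103185276, plus strand, mm10) had 173 counts in the IL-36 gamma library and 252 in the control library, a ratio of 0.721 (0.590 to 0.878). Its level was 2.03 CPM per kilobase with IL-36 gamma and 2.82 in the control, so it made up 8.03% of the Rab6 level in the IL-36 gamma library and 10.8% in the control library. The ratio of Rab6b to Rab6a counts was 0.719 times as high with IL-36 gamma (0.581 to 0.888), and 0.747 times (0.604 to 0.922) with the length trend removed. The interval of Rab6b stayed below 1 in all 11 alternatives, and no exon of another gene overlaps it. It did not pass the size rule, since its upper bound lies above 0.8.

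Other genes of this group spanned 1. Rab18, a Rab of lipid droplets, had a ratio of 0.989 (0.919 to 1.06). Rab34, known from macropinocytosis and the positioning of lysosomes, had 586 counts with IL-36 gamma and 661 in the control, a ratio of 0.931 (0.831 to 1.04). Rab33b, which binds the autophagy protein Atg16l1, had a ratio of 1.03, and Rab2b, Rab19, Rab36, Rab39 and Rab43 had ratios between 0.872 and 0.986. Genes on the opposite strand cover 64.0% of the exonic bases of Rab2b, and a gene of the same strand covers 75.4% of those of Rab43. Rab30 had 3 counts with IL-36 gamma and 0 in the control, Rab33a had 9 with IL-36 gamma and 5 in the control, and Rab39b was at 0 in both libraries. Within the group 2 intervals lay above 1 and 1 below, and its median log2 ratio was -0.02.

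Secretory Rabs between the Golgi and the plasma membrane held 13.0% of the Rab total in the IL-36 gamma library and 13.5% in the control library. Rab10, which brings vesicles with glucose transporters or Toll-like receptor 4 to the surface, was highest in level, at 80.1 CPM per kilobase with IL-36 gamma and 74.0 in the control. It had 4766 counts in the IL-36 gamma library and 4621 in the control library, a ratio of 1.08 (1.04 to 1.13). This interval included 1 in 2 of 10 alternatives, with a log2 ratio of 0.11 as scaled, 0.06 with total counts and 0.03 with the expression trend removed. Rab8 proteins serve polarised exocytosis, the outgrowth of membrane and, in macrophages, signalling from Toll-like receptors. Rab8a had 2185 counts with IL-36 gamma and 2139 in the control, a ratio of 1.07 (1.01 to 1.14), and held above 1 in 6 of 11 alternatives. Among the alternatives able to alter it, the interval held with upper quartile scaling and with the trend on length or GC content removed.

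Rab8b (ENSMUSG00000036943.9, chromosome 9, 66843664 to 66919687, minus strand, mm10) was the other Rab gene with an interval below 1. It had 3738 counts in the IL-36 gamma library and 4376 in the control library, a ratio of 0.897 (0.858 to 0.937), and it stayed below 1 in all 11 alternatives. Within the pair Rab8b made up 62.8% of the Rab8 level in the IL-36 gamma library and 66.9% in the control library. The ratio of Rab8b to Rab8a counts was 0.836 times as high with IL-36 gamma (0.776 to 0.901). With the length trend removed it was 0.838 times (0.777 to 0.902). Exon lengths of 4678 bases for Rab8a and 4733 for Rab8b left that removal little to alter. The GC content of transcripts was 49.6% for Rab8a and 40.6% for Rab8b. With the GC trend removed the log2 ratio of Rab8b was -0.09, against -0.16 as scaled, and that of Rab8a was 0.10 in both settings. Of the longest Rab8b transcript, 5.89% matched the gene Gm20689 at 97% identity or more. Ratios between paralogs were also taken for pairs not given above, and each of those intervals included 1. Rab7b to Rab7 gave 0.967 (0.915 to 1.02), Rab31 to Rab22a 0.983 (0.893 to 1.08) and Rab3d to Rab3a 0.884 (0.663 to 1.18). Rab38 to Rab32 gave 1.60 (0.896 to 2.91), Rab2b to Rab2a 0.846 (0.684 to 1.04) and Rab4b to Rab4a 0.588 (0.266 to 1.27). No background of other gene pairs was computed.

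**Figure D4:**
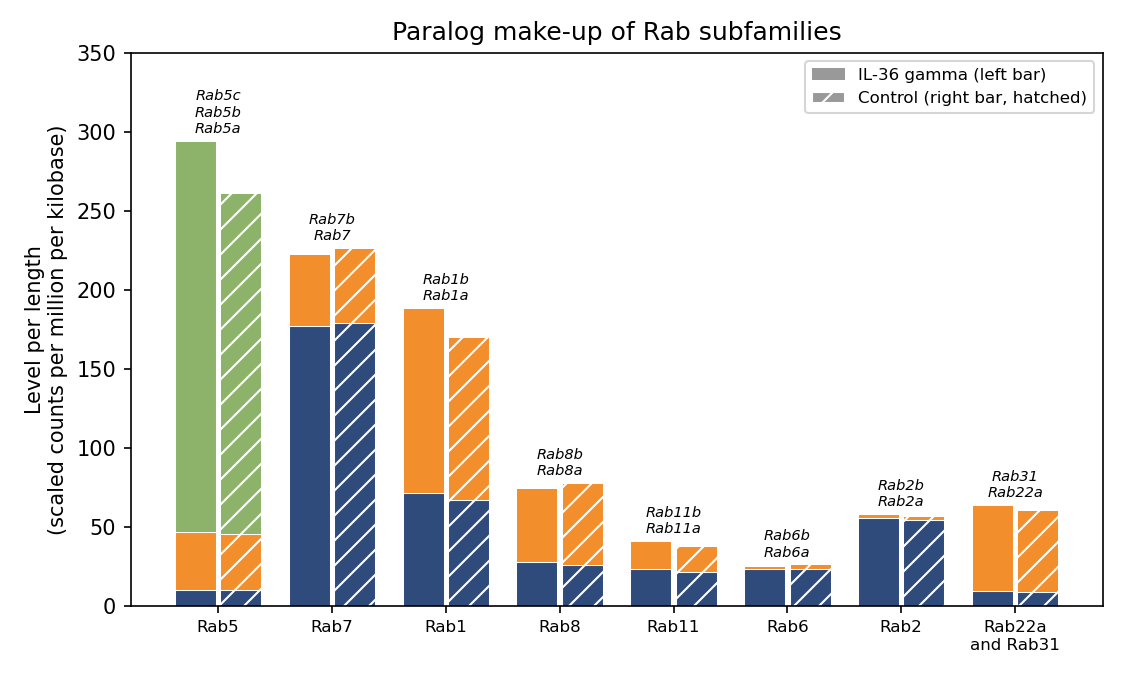
Level per length (scaled CPM per kilobase) of 8 Rab subfamilies in the IL-36 gamma library (left bar of each pair) and the control library (right bar, hatched), with paralogs stacked in the order named above each pair. Rab5c makes up 84.3% of Rab5 with IL-36 gamma and 82.8% in the control, and Rab8b makes up 62.8% of Rab8 with IL-36 gamma and 66.9% in the control.

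The promoter windows of Rab6b (GRCm38.p6, chr9:103111824-103112123, plus strand) and Rab8b (GRCm38.p6, chr9:66919656-66919955, minus strand), again from RefSeq, are shown because these were the genes with an interval below 1. Capitals mark the GC box (GGGCGG), the CCAAT box (CCAAT) and the PU.1 motif (GAGGAAG), read on either strand.
Rab6b: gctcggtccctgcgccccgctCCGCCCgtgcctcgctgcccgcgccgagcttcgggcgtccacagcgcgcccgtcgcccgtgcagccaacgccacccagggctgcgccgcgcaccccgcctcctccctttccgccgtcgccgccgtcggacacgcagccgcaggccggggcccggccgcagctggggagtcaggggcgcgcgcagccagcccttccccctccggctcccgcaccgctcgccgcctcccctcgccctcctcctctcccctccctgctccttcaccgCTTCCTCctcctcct
Rab8b: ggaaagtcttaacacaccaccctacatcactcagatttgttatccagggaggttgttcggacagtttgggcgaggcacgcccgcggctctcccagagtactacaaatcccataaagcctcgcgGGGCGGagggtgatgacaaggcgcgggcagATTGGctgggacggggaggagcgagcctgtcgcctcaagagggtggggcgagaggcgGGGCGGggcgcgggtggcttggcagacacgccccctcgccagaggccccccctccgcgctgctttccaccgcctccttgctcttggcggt

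These windows have a GC box in common with that of Rab5c, a motif of most Rab promoters. RefSeq held 48 windows of 300 bases for 39 of the 47 measured genes, the others being Rab18, Rab2a, Rab36, Rab37, Rab38, Rab44, Rab4a and Rab7b. Motifs were searched on both strands, and overlapping matches were counted. A GC box was in 72.9% of Rab windows, against 35.7% of all 32851 windows and 61.6% of windows of measured protein-coding genes. The CCAAT box was in 47.9% of Rab windows, against 37.4% of all windows and 37.9% of those of measured protein-coding genes. The core of the CLEAR element, TCACGTG, known from lysosomal genes, was in 4 windows (Rab21, Rab23, Rab24 and Rab5a), or 8.33%, against 3.77% of all windows and 5.87% of those of measured protein-coding genes. The PU.1 motif was in 8 windows, or 16.7%, against 13.6% of all windows and 13.8% of those of measured protein-coding genes. The AP-1 motif TGACTCA was in the window of Rab34 alone, or 2.08%, against 5.20% of all windows and 3.78% of those of measured protein-coding genes. The NF-kB consensus motif of 10 bases was in those of Rab11a and Rab28, or 4.17%, against 8.46% of all windows and 10.3% of those of measured protein-coding genes. A match is a run of letters and not a site of binding.

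The remaining genes of exocytosis were low or near 1. Rab3d, a Rab of secretory granules, had 1047 counts in the IL-36 gamma library and 1008 in the control library, a ratio of 1.09 (0.999 to 1.19). Rab3a, known from synaptic vesicles, had 121 counts with IL-36 gamma and 103 in the control, a ratio of 1.23 (0.940 to 1.62). Rab3b and Rab3c were at 0 in both libraries, so Rab3d made up 82.1% of the Rab3 level with IL-36 gamma and 83.8% in the control. Rab37, known from granule and cytokine secretion, had 20 counts with IL-36 gamma and 28 in the control, a ratio of 0.750 (0.400 to 1.38). Rab13, a Rab of epithelial junctions, had a ratio of 1.03 (0.820 to 1.29), and Rab26 had 1 count in each library.

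Lysosome-related Rabs, which build organelles such as melanosomes and the secretory granules of blood cells, held 5.16% of the Rab total in the IL-36 gamma library and 5.08% in the control library. The interval of each of the 6 measured genes included 1, with ratios between 1.03 and 1.70. With the length trend removed the log2 ratios of the 2 most abundant were -0.07 for Rab29 and -0.01 for Rab32, and with total counts that of Rab29 was -0.02. The median log2 ratio of the group, 0.35, came from its genes of few counts. Among those averaging 50 counts or more it was 0.19. Rab32, which acts in the making of lysosome-related organelles and in macrophage defence against bacteria in vacuoles, had 1690 counts with IL-36 gamma and 1667 in the control, a ratio of 1.06 (0.994 to 1.14). Rab29, which brings the kinase Lrrk2 to membranes, had 501 counts in the IL-36 gamma library and 511 in the control library, a ratio of 1.03 (0.908 to 1.17).

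The less abundant genes of this group had wide intervals. Rab27a, which docks secretory lysosomes and granules at the plasma membrane, had 191 counts with IL-36 gamma and 164 in the control, a ratio of 1.22 (0.987 to 1.52). Rab38, the paralog of Rab32 best known from melanosomes, had 34 counts with IL-36 gamma and 21 in the control, a ratio of 1.70 (0.958 to 3.08). Rab44, a large Rab known from bone marrow cells, had 66 counts with IL-36 gamma and 49 in the control, a ratio of 1.41 (0.962 to 2.09). At this depth none of these ratios could be told from 1. The intervals of Rab27a, Rab38 and Rab44 lay above 1 with the expression trend removed, and that of Rab27a also with the GC trend removed. Rab42 had 26 counts with IL-36 gamma and 20 in the control, and Rab27b had 0 with IL-36 gamma and 1 in the control. The summed level of the neutrophil markers, given above, was higher in the IL-36 gamma library, with Mmp8 the exception, and their part in these values was not tested.

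Genes with other roles gave 1 interval above 1. Rab28, known from cilia of photoreceptors, had 467 counts in the IL-36 gamma library and 420 in the control library, a ratio of 1.17 (1.02 to 1.33), which did not hold above 1 in 2 of 11 alternatives. Rab23, an inhibitor of Hedgehog signalling, had 95 counts with IL-36 gamma and 92 in the control, a ratio of 1.08 (0.805 to 1.46). Rab40c, which has a SOCS box and joins a ubiquitin ligase, had 648 counts with IL-36 gamma and 685 in the control, a ratio of 0.993 (0.890 to 1.11). Rab40b was at 0 in both libraries. A count of 0 allows up to 0.177 CPM in the IL-36 gamma library and 0.169 CPM in the control library, the levels of 3 counts.

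The genes that act on Rabs were listed by role, and 162 of 178 were measured. None passed the size rule in either direction with the reported scaling, against 1.52% of all measured genes higher and 2.53% lower. Their intervals lay above 1 in 21 genes, or 13.0%, against 20.2% of all measured genes, and below 1 in 42, or 25.9%, against 16.5%, and their median log2 ratio was -0.04. With the length trend removed that median was 0.00. Of 8 genes of Rab prenylation and extraction 2 had an interval above 1 and 2 below. The dissociation inhibitor gene Gdi2 had 7516 counts with IL-36 gamma and 7477 in the control, a ratio of 1.06 (1.02 to 1.09). Of 51 exchange factor genes 7 lay above 1 (13.7%) and 14 below (27.5%), of 36 genes of GTPase-activating proteins 3 (8.33%) and 8 (22.2%), and of 67 genes of effectors and tethers 9 (13.4%) and 18 (26.9%), against 20.2% above and 16.5% below over all measured genes.

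The partner genes named here were chosen after their values were seen, since none passed the size rule with the reported scaling. Eea1, the tether that Rab5 recruits to early endosomes, had 1026 counts in the IL-36 gamma library and 1413 in the control library, a ratio of 0.762 (0.703 to 0.827). The motor gene Myo5a, which carries vesicles bound by Rab27a or Rab11, had 3881 counts with IL-36 gamma and 5177 in the control, a ratio of 0.787 (0.755 to 0.820). Both genes have long transcripts, and their log2 ratios after removal of the length trend were -0.28 for Eea1 and -0.15 for Myo5a. Of the effectors and tethers 9 lay above 1 and 18 below. On the higher side, Plekhm1, an effector of Rab7 at lysosomes, had 5261 counts with IL-36 gamma and 4704 in the control, a ratio of 1.17 (1.13 to 1.22). Unc13d, the Rab27a effector Munc13-4, had 1478 counts with IL-36 gamma and 1287 in the control, a ratio of 1.21 (1.12 to 1.30). Fyco1, of the same list, was lower, with 564 counts with IL-36 gamma and 769 in the control. Its ratio was 0.770 (0.689 to 0.859), and its log2 ratio after removal of the length trend was -0.28. The Rab27a effector genes Mlph and Myrip had 12 and 0 counts in the IL-36 gamma library and 6 and 2 in the control library, below the count minimum.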

How the data were processed

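Bulk RNA from 1 IL-36 gamma library and 1 control library was sequenced from Trizol extracts with a standard Illumina preparation, per the labels' protocols. The authors deposited whole-number counts of reads for each Ensembl gene ID, with no normalization. The mouse build was mm10, and the submitters' processing notes name HTSeq, the aligner STAR 2.5.0a, the trimmer Trim Galore 0.6.1 and FastQC 0.11.8. The sources used here give neither the HTSeq settings, strand included, nor the annotation release. The 5 rows that name no gene were left out. Reads assigned to no gene made up 46.3% of all rows in the IL-36 gamma library and 47.2% in the control library, and reads with more than 1 alignment made up 6.92% in the IL-36 gamma library and 6.65% in the control library.

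Symbols, positions and exon lengths came from GENCODE M21, in which 54409 of 54446 gene IDs were found without their version. Exon length is the union of all annotated exons, so exons that macrophages do not use lower a level per length. Scaling used the TMM factors of edgeR 4.0.16 (R 4.3.3), which were 0.981 for IL-36 gamma and 1.0198 for the control. With a single library in each group there are no residual degrees of freedom, and no test was run. Genes averaging 10 counts or more were measured, and each ratio was given its exact 95% Clopper-Pearson interval, and log2 ratios used a prior count of 2. Intervals and floors cover counting error only, and copies made by polymerase chain reaction are not independent molecules.

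The members and lists were chosen with earlier results of these data known. The rule for named genes was to give values for genes past the size rule, for the 2 highest in level of each role and for the Rab5, Rab7, Rab11, Rab27 and Rab32, Rab38 and Rab29 sets. Members named beyond it, including those with an interval wholly above or below 1, were chosen after their values were seen. Near-identical copies were sought with blastn 2.17.0 among GENCODE M21 transcripts, as alignments of at least 100 bases at 97% identity or more, overlapping genes left out. Trends on expression, exon length and GC content of transcripts were removed by lowess with a span of 0.3, and the use of the length trend on ratios between paralogs was chosen after the values were seen. The ratio, its interval and the trend removal were tested on simulated data that held counting error only. That test cannot show how the intervals fare with differences between cultures. Further alternatives were upper quartile scaling, size factors of DESeq2 1.42.0, total counts, protein-coding genes only, count minimums of 50 and 1, prior counts of 0.5 and 5, the mean in place of the median, 99% intervals, 1.5-fold and 2-fold bounds, and members without exonic overlap. Computations used Python 3.11.15 with scipy 1.17.1 and statsmodels 0.14.6.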

Additional observations from a re-analysis of the deposited data

How the results depend on the processing

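No Rab gene passed the size rule under any alternative, and the median log2 ratio of all Rab genes ran between -0.01 and 0.08. With none passing as reported, some alternatives could not add a pass. These were the wider bounds, 99% intervals, the count minimum of 50 and the omission of members with exonic overlap. By role the median of recycling Rabs ran between -0.01 and 0.09, and the other roles kept their sign over the 14 settings run for medians, the reported one included. The count of intervals above 1 was 11 as reported, 4 with total counts and 6 with 99% intervals. Those left with total counts were Rab1b, Rab24, Rab5c and Rab9. The share of all measured genes is not given under these alternatives, for intervals above or below 1. The count below 1 was 2 as reported, 4 with total counts, 4 with the expression trend removed and 5 with the length trend removed, where Rab34, Rab7 and Rab7b joined Rab6b and Rab8b; the cause was not tested. Rab partner genes lower past the size rule numbered 0 as reported, 2 with total counts (Eea1 and Myo5a) and 1 with the expression trend removed. With a count minimum of 1 there was 1, where Sytl2 (0 counts with IL-36 gamma, 7 in the control) enters. Members with the whole interval between 0.8 and its inverse numbered 28 as reported and 17 with members of exonic overlap left out, where fewer genes remain. For the 13 Rab genes with an interval above or below 1, the call held in 113 and was lost in 27 of the recomputed values, and the direction did not turn in any. Part of the 113 was fixed in advance. The count minimums and the omission of members with exonic overlap cannot alter the value of a gene that stays in. Genes under about 50 counts, such as Rab38, have intervals too wide to show a difference of 1.5-fold. No paired analysis was possible because each group has 1 library.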
